A study of Mus musculus with 9 samples.

Results

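The Egr, Nr4a and Cd69 activation genes are 7 mouse genes that T cells switch on within minutes to hours of antigen recognition, and their chromatin was examined here in resting cells. Their members were Egr1, Egr2, Egr3, Nr4a1, Nr4a2, Nr4a3 and Cd69. The signal was ATAC-seq, in which a transposase cuts and tags accessible DNA, measured without stimulation in naive CD4+ T cells of the C57BL/6 strain. Stat6_KO mice (Stat6 knockout), Il21e_KO mice (labelled both Il21e KO and IL21KO) and WT mice gave 3 libraries each. No label gives the age of the mice, the DNA that either knockout removes, or whether the 3 libraries of a genotype came from separate animals, so p-values measure the spread between these libraries. STAT6 carries the interleukin-4 signal to the nucleus, and activated helper T cells secrete IL-21 to help B cells.

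A peak was counted for a gene when the deposited mm9 peak table gave it that gene's symbol, or when it was intergenic and lay within 50 kb of the gene's transcript span. This gave 113 of the 115727 peaks in the table, 30 with the symbol and 83 intergenic. The window does not prove ownership, since 42 of the 83 intergenic peaks lay nearer to another listed gene. Cd69 had 31 peaks, more than 97.3% of the gene symbols in the table, where the median gene had 7. Nr4a1 and Nr4a3 had 19 each, Egr1 and Egr2 12 each, Egr3 11 and Nr4a2 9. A filter on low values left 62 of the 113 for testing: 8 at Egr1, 9 at Egr2, 8 at Egr3, 13 at Nr4a1, 3 at Nr4a2, 8 at Nr4a3 and 13 at Cd69.

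As background, EGR proteins are zinc-finger transcription factors of the immediate-early class, made within minutes of signalling through the T cell receptor. EGR2 and EGR3 are known as brakes on T cell activation, and EGR1 as a driver of early response genes. The NR4A proteins are orphan nuclear receptors that need no known ligand and are controlled through their amounts; in T cells Nr4a1 is widely used as a reporter of antigen receptor signalling, and the family is known for roles in tolerance, regulatory T cells and exhaustion. CD69 is an early activation antigen of the C-type lectin family that holds the receptor S1PR1 inside the cell and so keeps an activated T cell in the lymph node. Their transcripts are generally low in resting naive cells, and ATAC-seq does not measure transcripts.

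The promoter sequences of 4 members are shown first, because the start-site peaks carry much of the comparison between the genes. RefSeq (GRCm38.p6) lists 8 promoters for these 4 members, 5 of them for Egr2, and 250 bases upstream of the start are printed, 5′ to 3′ on the strand of the gene. The distance from the start to the far end of the gene is the same in GRCm38 as in the mm9 table for Nr4a1 (7949 bases) and Nr4a3 (41142 bases), and 4258 against 4259 bases for the Egr2 entry shown. The Nr4a2 entry starts farther upstream than the mm9 table does (17173 against 16778 bases). The peak positions elsewhere in the text are in mm9 and were not converted. Capitals mark the cyclic-AMP response element core TGACG on either strand (CGTCA when read from the opposite strand), and in Egr2 also the CArG box, the motif of serum response factor.
Nr4a1, chr15:101266596-101266845, plus strand: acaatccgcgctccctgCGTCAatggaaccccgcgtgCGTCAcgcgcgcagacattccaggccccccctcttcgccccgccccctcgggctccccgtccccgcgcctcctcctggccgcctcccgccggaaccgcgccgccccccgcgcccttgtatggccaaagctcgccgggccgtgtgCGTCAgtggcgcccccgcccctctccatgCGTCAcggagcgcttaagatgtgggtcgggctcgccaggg
Nr4a2, chr2:57124004-57124253, minus strand: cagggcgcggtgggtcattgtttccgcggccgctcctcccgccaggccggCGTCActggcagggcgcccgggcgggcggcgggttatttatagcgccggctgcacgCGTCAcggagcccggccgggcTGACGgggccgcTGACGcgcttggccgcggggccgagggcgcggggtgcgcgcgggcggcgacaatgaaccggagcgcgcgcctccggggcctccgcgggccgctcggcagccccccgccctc
Nr4a3, chr4:48045055-48045304, plus strand: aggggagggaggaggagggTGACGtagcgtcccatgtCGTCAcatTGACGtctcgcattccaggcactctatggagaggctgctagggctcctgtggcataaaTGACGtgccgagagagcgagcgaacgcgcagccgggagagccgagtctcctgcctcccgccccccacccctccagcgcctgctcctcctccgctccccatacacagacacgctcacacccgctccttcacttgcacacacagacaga
Egr2, chr10:67537680-67537929, plus strand: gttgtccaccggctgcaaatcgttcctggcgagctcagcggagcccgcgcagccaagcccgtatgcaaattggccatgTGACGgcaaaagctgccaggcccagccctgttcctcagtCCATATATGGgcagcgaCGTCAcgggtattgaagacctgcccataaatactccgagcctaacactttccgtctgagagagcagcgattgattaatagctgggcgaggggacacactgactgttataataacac

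Each of the 3 Nr4a promoters held 4 copies of the TGACG core, on one strand or the other. Of the 32851 RefSeq promoters of the same length, 17.8% held at least 1 copy, 3.90% at least 2 and 0.137% at least 4. The core contains a CG pair, and the Nr4a promoters are rich in such pairs: 34 in Nr4a1, 44 in Nr4a2 and 18 in Nr4a3. Among the 7120 promoters with at least 18 CG pairs, 0.548% held 4 or more copies. That cut is the count of Nr4a3, so this share is not matched to the richer Nr4a1 and Nr4a2 promoters. The palindromic full element TGACGTCA, which would count as 2 cores, was absent from all 8 entries (1.55% of all promoters held it). The Egr2 promoter shown held 2 cores and 1 CArG box, and a CArG box was found in 4 of the 5 Egr2 entries against 1.47% of all promoters. The 4 entries hold 2 distinct boxes, since 3 of them overlap and share the box shown. GCGTGGGCG (EGR), AAAGGTCA (NR4A), TGANTCA (AP-1) and the STAT and STAT6 motifs were not found in these windows, where 0.536%, 1.34%, 6.75%, 7.02% and 5.85% of all promoters held them. GGAAA, the core shared by NFAT and REL sites, is common (55.6% of all promoters) and was absent from the Nr4a1 and Nr4a3 windows. These are letter matches on both strands and do not show that a factor is bound.

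Library depth ran between 1049460 and 1802405 reads in peaks. The deposited values are CPM (reads per 1000000 reads in the listed peaks), with 1 read worth 0.555 to 0.953 CPM. A count of 0 in a peak allows up to 3 reads, or 1.66 to 2.86 CPM, and this limit covers counting error only. Intervals given for differences between genotypes rest on the spread between libraries. The library Il21e_KO 1 stood apart: it was the shallowest, it had no read in 23.5% of peaks against 3.37% to 11.2% in the other 8, and 42.7% of its reads lay at transcription start sites (TSS) against 31.6% to 36.4%. Differences of single peaks and genes that it moves by over 1.5 times are also given without it. All 10 naive CD4+ T cell marker genes, among them Cd4, Lef1 and Ccr7, had a TSS peak, and together these held 239 to 335 CPM per library. The 8 B cell markers summed to 21.9 to 54.8 CPM at TSS peaks, the 5 of 8 myeloid markers with a TSS peak to 75.3 to 112, the 3 of 6 NK cell markers to 13.3 to 26.6, the erythroid list, by 1 of 6 genes, to 14.2 to 23.9, and the CD8 T cell list, by Cd8b1 alone, to 30.0 to 40.5. The regulatory T cell list, without Foxp3, summed to 56.04 to 78.1 CPM and the 6 memory or effector markers to 96.2 to 132. The lists differ in length, so their sums do not rank the cell types. The median gene with a TSS peak had 23.2 CPM in the naive list, 3.15 in the B cell list and 7.02 in the NK cell list. It had 19.1 CPM in the myeloid, 18.6 in the regulatory T cell and 18.0 in the memory or effector list. Cd8b1 averaged 35.1 CPM and the single erythroid gene 18.7. In bulk chromatin, a change in the share of a cell type and a change within a cell cannot be told apart.

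Start sites of all 7 genes were accessible in resting cells. Per kb of TSS peak, averaged over the 9 libraries, Nr4a2 stood highest at 25.2 ± 2.66 CPM per kb (SD, n = 9), followed by Cd69 at 21.8 ± 2.77, Nr4a1 at 20.1 ± 4.45, Egr1 at 20.1 ± 6.37, Egr2 at 20.05 ± 2.86, Nr4a3 at 16.8 ± 8.87 and Egr3 at 14.7 ± 2.41. The median over the 12801 genes with a TSS peak was 22.1 CPM per kb, so per kb 6 of the 7 lay below the median gene and Nr4a2 above it, at the 72.5th percentile. Egr3 and Nr4a3 were low, at the 17.9th and 22.9th percentiles. By summed TSS signal, not divided by peak length, 4 of the 7 lay above the median of 26.0 CPM: Nr4a2 at the 96.1st percentile, Egr2 at the 87.7th, Egr1 at the 86.0th and Cd69 at the 56.7th. The order per kb at its low end rests on Il21e_KO 1. Over the other 8 libraries Nr4a3 was lowest, at 13.97 ± 2.59 CPM per kb (SD, n = 8), below Egr3 at 15.01 ± 2.39. Egr1 then averaged 18.4 and Nr4a1 19.0, both below Egr2 at 20.1, and 5 of the 7 lay below the median gene.

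Of the 21 pairs of genes, 5 differed by the exact 2-sided sign-flip permutation test within libraries (n = 9, adjusted over the 21 pairs). Egr3 lay below Egr2, Nr4a1, Nr4a2 and Cd69 in 9 of 9 libraries, with mean log2 ratios of 0.45 for Egr2 over Egr3 and -0.44, -0.79 and -0.57 for Egr3 over Nr4a1, Nr4a2 and Cd69 (exact permutation adjusted p = 0.0205 each, from the smallest p that 9 libraries allow, 0.00391). Egr2 lay below Nr4a2 in 8 of 9 libraries (mean log2 ratio -0.33, exact permutation adjusted p = 0.0492). None of the neighbouring genes in the order differed past the threshold; the closest was Nr4a2 over Cd69, higher in 8 of 9 libraries (log2 ratio 0.21, exact permutation adjusted p = 0.0957). Without Il21e_KO 1, 13 of the 21 pairs passed, and with only the highest TSS peak of each gene 0 did, which moves Egr3 up to 18.4 CPM per kb.

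**Figure D1:**
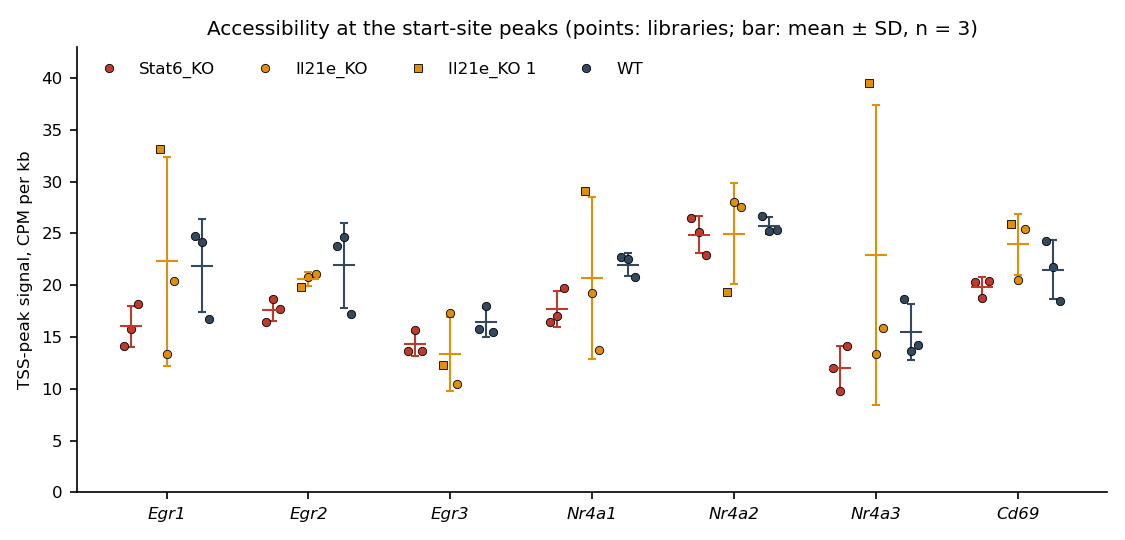
CPM per kb of TSS peak (vertical axis) for each gene (horizontal axis) in Stat6_KO, Il21e_KO and WT libraries; points are libraries, bars the mean ± SD of 3, and the square is Il21e_KO 1. That library reaches 39.6 CPM per kb at Nr4a3, where the other 8 lie between 9.78 and 18.6, and is the lowest of 9 at Nr4a2 with 19.3.

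The genes differed in where their open chromatin lies. At Nr4a2, the 3 TSS peaks held 62.4% of the summed CPM of the gene's peaks and intergenic peaks 2.68%. Peaks that carry a neighbouring gene's symbol are not counted, so these shares also depend on the listed neighbours. Another listed gene, BB557941, lay 3.07 kb from the Nr4a2 peak at the listed start. The other 6 genes had 11.3% to 24.3% of their signal at TSS peaks and 62.3% to 80.1% in intergenic peaks. Egr1 and Egr2 had their highest peak at the start site, with a mean of 42.6 CPM (chromosome 18, 35019482 to 35021606) and 44.3 CPM (chromosome 10, 66998639 to 67000847). Egr3 did not: its highest peak was intergenic, centred 2.2 kb upstream (chromosome 14, 70474298 to 70475741), with a mean of 41.4 CPM, whereas its TSS peaks had 11.4 and 5.71 CPM. The Egr3 upstream peak was also the higher one per kb, at 28.7 CPM per kb against 18.4 and 10.5.

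Upstream of Nr4a1 a row of 4 intergenic peaks at 8.3, 12.8, 16.3 and 20.2 kb from the start had means of 26.0, 26.0, 26.4 and 16.6 CPM, beside 24.4 CPM at the TSS peak (chromosome 15, 101096649 to 101097860). The highest of them, 16.3 kb upstream (chromosome 15, 101080676 to 101081311), reached 41.6 CPM per kb, the highest of all 113 peaks. At Nr4a3 the highest peak lay in intron 7, 29.7 kb downstream of the start (chromosome 4, 48087386 to 48088429), with 23.5 CPM, against 18.2 CPM at the TSS peak (48057411 to 48058495). Nr4a2 had 2 tested TSS peaks of near equal height, 28.5 CPM at the listed start (chromosome 2, 56975724 to 56976819) and 28.2 CPM 9.0 kb further in (56966896 to 56967859), with a peak in a 5′ UTR exon between them at 26.0 CPM (56968485 to 56969724). Its remaining TSS peak, 8.3 kb in, had a mean of 1.70 CPM and at most 8 reads in a library, and was not tested. Cd69 had many low peaks: its TSS peak (chromosome 6, 129225023 to 129226311) had 28.0 CPM and its intron 1 peak (129223474 to 129224215) 17.4 CPM, but the median of its 31 peaks was 3.43 CPM and 18 of them were too low to test.

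**Figure D2:**
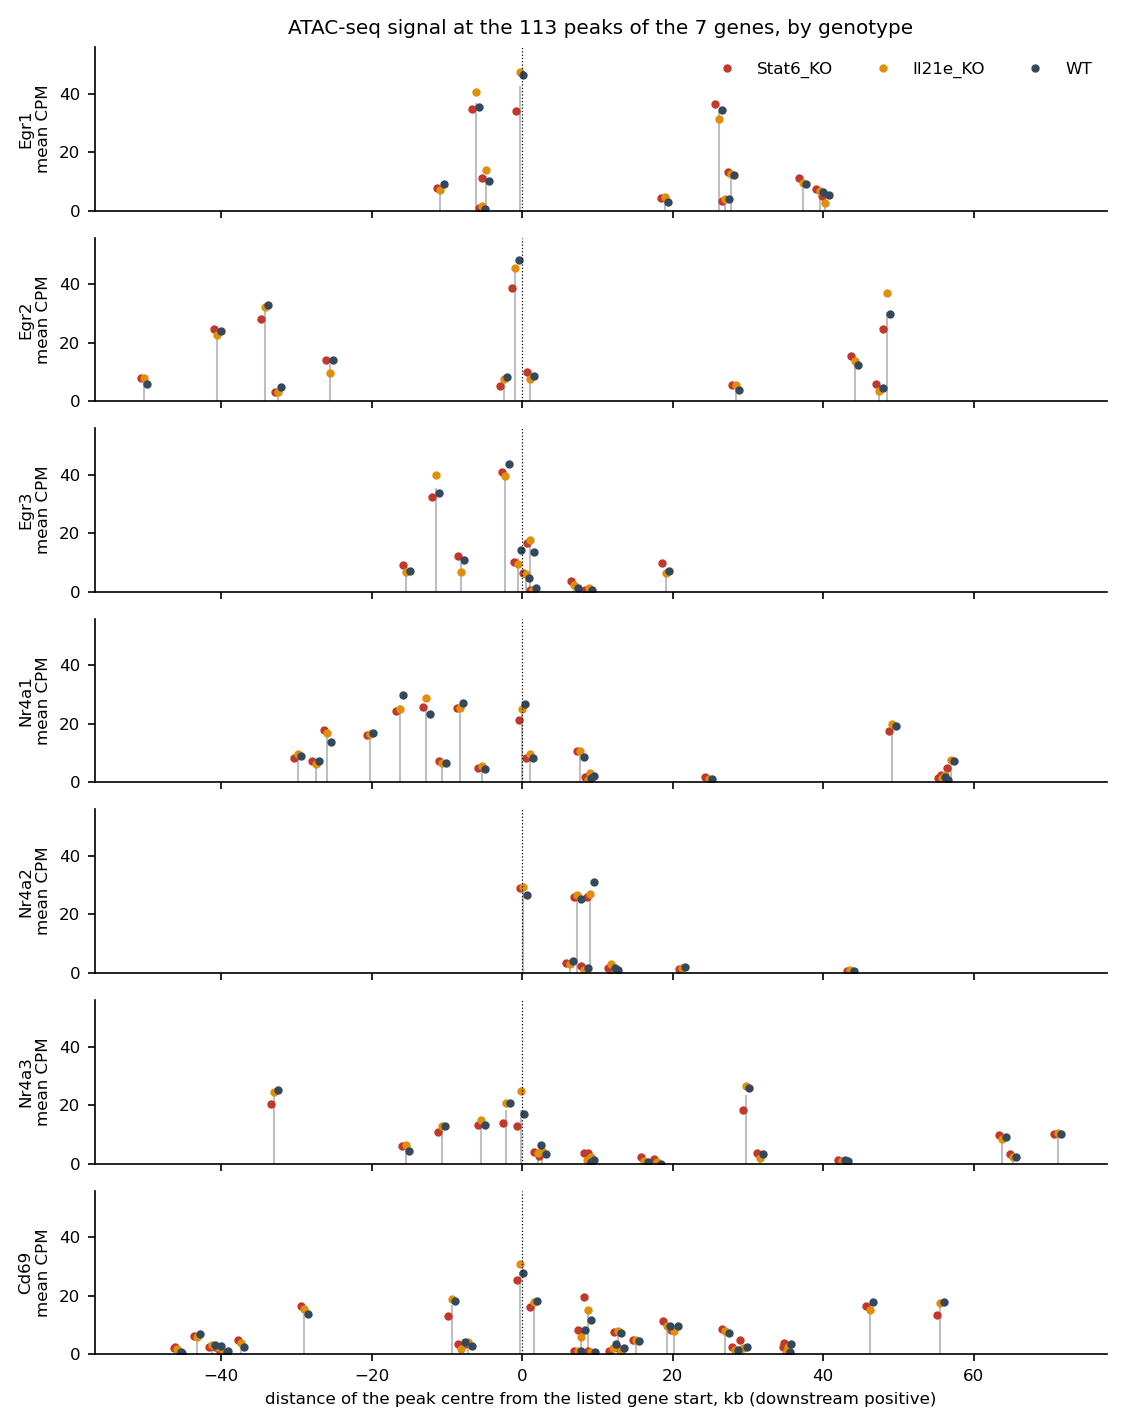
Mean CPM of each of the 113 peaks (vertical axis) against the distance of the peak centre from the listed gene start in kb (horizontal axis, downstream positive), 1 panel per gene; points are the means of 3 Stat6_KO, 3 Il21e_KO and 3 WT libraries, set slightly apart sideways, and grey lines the mean of all 9. The points of the 3 genotypes lie close together at most peaks. Nr4a2 has nearly all of its counted signal inside the gene, and the tallest Egr3 peak lies 2.2 kb upstream of the start.

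No peak of the 7 genes differed between genotypes past the false discovery rate (FDR) of 0.05 by limma-trend over the 48287 peaks tested. In Stat6_KO against WT 0 of 62 passed (lowest adjusted p = 1.00, background 0.0104% of all tested peaks), in Il21e_KO against WT 0 of 62 (lowest adjusted p = 1.00, background 0%), and in Stat6_KO against Il21e_KO 0 of 62 (lowest adjusted p = 0.780, background 0.0104%). EdgeR, DESeq2 and limma-voom on the recovered reads called 0 member peaks too. At an unadjusted p under 0.05 by limma-trend there were 2 of 62 in Stat6_KO against WT (background 3.29%), 1 of 62 in Il21e_KO against WT (background 3.52%) and 5 of 62 in Stat6_KO against Il21e_KO (background 5.68%). Libraries of the 2 groups did not overlap at 8 of 62 peaks in Stat6_KO against WT, 3 higher and 5 lower (background 13.2%), at 1 of 62 in Il21e_KO against WT, higher (background 7.28%), and at 7 of 62 in Stat6_KO against Il21e_KO, 3 higher and 4 lower (background 11%). As shares of the 62 these are 12.9%, 1.61% and 11.3%, none of them well above its background. The median log2 fold change of the 62 peaks was 0.01 in Stat6_KO against WT (all peaks 0.00), -0.01 in Il21e_KO against WT (all peaks -0.03) and 0.02 in Stat6_KO against Il21e_KO (all peaks 0.04), and no member reached a log2 fold change of 1 in size in any comparison. Both knockouts were set against the same WT libraries, and both comparisons with Stat6_KO share its libraries.

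Summed over the peaks of a gene, the 3 genotypes lay within narrow limits of each other. Over the 15391 genes tested, 0 of the 7 passed by limma-trend in Stat6_KO against WT (background 0.013%), Il21e_KO against WT (background 0%) or Stat6_KO against Il21e_KO (background 0.0195%). At an unadjusted p under 0.05 the counts were also 0 of 7 in each (backgrounds 3.37%, 2.88% and 5.4%). The groups did not overlap at 1 of 7 genes in Stat6_KO against WT (Nr4a3, lower; background 14.9%), 0 in Il21e_KO against WT (background 6.78%) and 1 in Stat6_KO against Il21e_KO (Egr3, higher; background 11%). All 21 differences lay between -0.24 and 0.07 on the log2(CPM + 1) scale, and their 95% intervals ran from -0.49 to 0.32, which is 0.714-fold to 1.25-fold. The lowest adjusted p was 0.763. Without Il21e_KO 1 the 21 differences lay between -0.18 and 0.14.

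**Figure D3:**
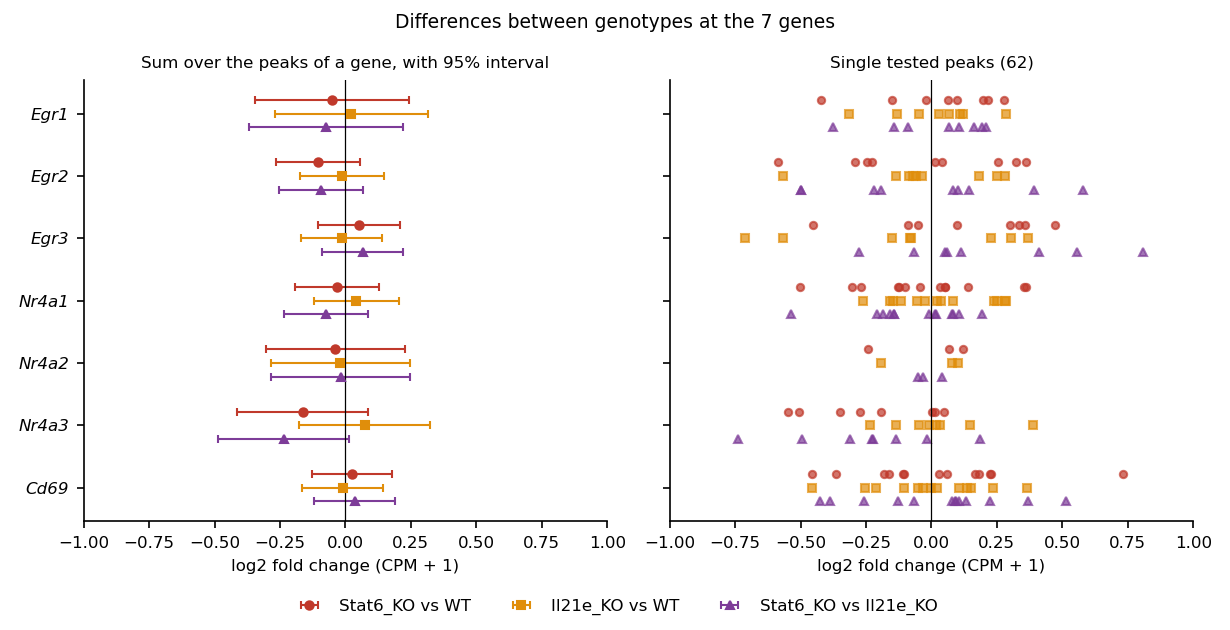
Log2 fold change on the log2(CPM + 1) scale (horizontal axis) per gene in Stat6_KO against WT, Il21e_KO against WT and Stat6_KO against Il21e_KO; the left panel gives the sum over a gene's peaks with its 95% interval, the right panel each of the 62 tested peaks. Every interval on the left includes 0, and single peaks stay between -0.74 and 0.81.

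Egr1, the prototype immediate-early factor, had 30.1, 33.6 and 38.5 CPM at its TSS peak in Stat6_KO libraries, 70.5, 28.4 and 43.3 in Il21e_KO and 52.6, 51.4 and 35.5 in WT. The groups overlap: WT 3 lies among the Stat6_KO libraries, and Il21e_KO 1 above all others. The log2 fold change was -0.42 in Stat6_KO against WT and -0.05 in Il21e_KO against WT, and neither passed. Without Il21e_KO 1 the value in Il21e_KO against WT was -0.38 (limma-trend adjusted p = 0.691). Its highest peak away from the start, 6.2 kb upstream (chromosome 18, 35013977 to 35015413), had 30.7, 32.4 and 41.0 CPM in Stat6_KO, 62.9, 30.2 and 28.9 in Il21e_KO and 28.1, 41.3 and 36.8 in WT. Apart from Il21e_KO 1 the 3 genotypes share 1 range there.

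Egr2, whose product restrains T cell activation together with EGR3, had 36.4, 41.2 and 39.1 CPM at its TSS peak in Stat6_KO, 43.8, 46.0 and 46.6 in Il21e_KO and 52.6, 54.5 and 38.0 in WT. All Stat6_KO libraries lie below all Il21e_KO libraries, while WT 3 falls inside the Stat6_KO range. The log2 fold change of Stat6_KO against WT was -0.29 ± 0.16 (SE; limma-trend adjusted p = 1.00). A small peak 2.5 kb upstream (chromosome 10, 66997994 to 66998421) had 4.55, 4.71 and 6.12 CPM in Stat6_KO, 7.62, 6.93 and 8.32 in Il21e_KO and 9.79, 9.34 and 5.80 in WT (log2 fold change of Stat6_KO against WT -0.58 ± 0.30, limma-trend adjusted p = 1.00). The order of the genotypes there is that of the TSS peak, and WT 3 again overlaps with Stat6_KO. The highest peak of Egr2 away from its start lay 34.2 kb upstream (66965891 to 66967004), with a mean of 31.1 CPM and a log2 fold change of -0.23 in Stat6_KO against WT.

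Further out, 2 distant peaks of Egr2 were among the smallest p of a comparison. The peak 25.6 kb upstream (chromosome 10, 66974694 to 66975499) had 15.3, 14.1 and 12.8 CPM in Stat6_KO, 5.72, 10.1 and 12.8 in Il21e_KO and 16.5, 10.1 and 16.1 in WT, with log2 fold changes of -0.57 ± 0.27 (limma-trend adjusted p = 1.00) in Il21e_KO against WT and 0.58 ± 0.27 (limma-trend adjusted p = 0.780) in Stat6_KO against Il21e_KO. The peak 48.4 kb downstream (67048567 to 67049626), nearer to Ado than to Egr2, had 25.6, 21.8 and 26.9 CPM in Stat6_KO, 53.4, 25.8 and 31.6 in Il21e_KO and 31.8, 32.7 and 24.5 in WT (-0.50 ± 0.23 in Stat6_KO against Il21e_KO, limma-trend adjusted p = 0.780). In both peaks Il21e_KO 1 lies outside the other 8 libraries, at the low end of one and the high end of the other. Without it the peak 25.6 kb upstream stood at -0.28 in Il21e_KO against WT and 0.29 in Stat6_KO against Il21e_KO, and the peak 48.4 kb downstream at -0.21 in Stat6_KO against Il21e_KO.

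Egr3, the partner of EGR2 in restraint of activation, had 9.09, 9.42 and 12.2 CPM at its upstream TSS peak (chromosome 14, 70476361 to 70476982) in Stat6_KO, 9.53, 12.6 and 6.66 in Il21e_KO and 15.3, 16.3 and 11.6 in WT. WT 1 and WT 2 lie above the rest and WT 3 among the knockouts, so the groups overlap. The log2 fold change was -0.45 in Stat6_KO against WT and -0.57 ± 0.25 in Il21e_KO against WT (limma-trend adjusted p = 1.00). Its strongest peak, 2.2 kb upstream, had 36.9, 46.5 and 39.8 CPM in Stat6_KO, 34.3, 37.2 and 47.2 in Il21e_KO and 45.9, 45.2 and 39.98 in WT. The 3 genotypes overlap there. The tested peaks inside the gene pointed the other way. In the 5′ UTR exon (70478032 to 70478584) there were 18.8, 16.5 and 15.3 CPM in Stat6_KO, 20.01, 17.0 and 16.1 in Il21e_KO and 15.9, 12.5 and 12.3 in WT. Every Il21e_KO library there lay above every WT library (0.37 ± 0.20, limma-trend adjusted p = 1.00). The second TSS peak (70477488 to 70478032) adjoins the 5′ UTR exon peak and had 3.06 to 8.83 CPM over the 9 libraries. A peak in coding exon 2, too low to test, averaged 0.758 CPM in Stat6_KO, 0.580 in Il21e_KO and 1.41 in WT.

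Among distant Egr3 peaks, the one 8.1 kb upstream (chromosome 14, 70468886 to 70469361) had 9.66, 9.42 and 17.1 CPM in Stat6_KO, 2.86, 9.45 and 8.32 in Il21e_KO and 11.01, 9.34 and 12.3 in WT. Il21e_KO 1 held 3 reads there, the lowest of the 9. The log2 fold change was 0.81 ± 0.34 in Stat6_KO against Il21e_KO (limma-trend adjusted p = 0.780) and -0.71 ± 0.34 in Il21e_KO against WT (limma-trend adjusted p = 1.00). Without Il21e_KO 1 these were 0.36 and -0.26. The peak 19.1 kb downstream (70496096 to 70496572), nearer to Bin3, had 9.66, 10.01 and 9.79 CPM in Stat6_KO, 7.62, 5.04 and 6.66 in Il21e_KO and 7.34, 4.67 and 9.03 in WT. All 3 Stat6_KO libraries lay above all 6 others, with log2 fold changes of 0.56 ± 0.29 against Il21e_KO (limma-trend adjusted p = 0.780) and 0.47 ± 0.29 against WT (limma-trend adjusted p = 1.00).

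Nr4a1, also called Nur77 and used as a reporter of antigen receptor signalling, had 19.9, 20.6 and 23.9 CPM at its TSS peak in Stat6_KO, 35.3, 23.3 and 16.6 in Il21e_KO and 27.5, 27.2 and 25.2 in WT. Every Stat6_KO library lay below every WT library, with a log2 fold change of -0.30 that did not pass. The Il21e_KO libraries span both groups, but only Il21e_KO 1 lies above the WT libraries and the others lie below every one of them. The log2 fold change in Il21e_KO against WT was -0.15, and -0.42 without Il21e_KO 1 (limma-trend adjusted p = 0.690). The intergenic peak 25.9 kb upstream (chromosome 15, 101071004 to 101071790), nearer to Grasp, ran the other way, with 17.6, 19.4 and 16.5 CPM in Stat6_KO, 20.01, 15.8 and 14.98 in Il21e_KO and 13.5, 11.7 and 16.1 in WT (0.36 ± 0.20 in Stat6_KO against WT, limma-trend adjusted p = 1.00). The peak 12.8 kb upstream (101084078 to 101084953) had 23.3, 23.6 and 30.6 CPM in Stat6_KO, 36.2, 22.7 and 27.7 in Il21e_KO and 25.7, 23.4 and 20.6 in WT, with overlapping groups (0.28 ± 0.20 in Il21e_KO against WT, limma-trend adjusted p = 1.00; 0.11 without Il21e_KO 1). Over its 19 peaks Nr4a1 summed to 211 ± 10.8 CPM in Stat6_KO, 223 ± 22.8 in Il21e_KO and 216 ± 5.40 in WT (SD, n = 3 each), a difference of -0.03 ± 0.08 (SE) in Stat6_KO and 0.04 ± 0.08 in Il21e_KO against WT (-0.04 without Il21e_KO 1).

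Nr4a2, also called Nurr1, had the fewest peaks and no tested peak outside the gene. Its TSS peak at the listed start had 30.1, 33.6 and 23.9 CPM in Stat6_KO, 17.2, 37.2 and 34.4 in Il21e_KO and 23.9, 24.1 and 32.2 in WT, and its inner TSS peak 26.7, 24.7 and 26.9 CPM in Stat6_KO, 27.6, 26.5 and 27.2 in Il21e_KO and 35.5, 31.9 and 26.4 in WT. The groups overlap at both. The log2 fold changes were 0.12 and -0.24 in Stat6_KO against WT and 0.08 and -0.19 in Il21e_KO against WT. The 5′ UTR exon peak between them stood at 0.07 and 0.10 in these comparisons. Without Il21e_KO 1, which is the lowest library at the listed start, the values in Il21e_KO against WT were 0.42 (limma-trend adjusted p = 0.663) at the listed start, -0.20 at the inner TSS peak and 0.18 in the 5′ UTR exon.

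Nr4a3, also called Nor1, had the largest difference of the 7 gene sums when all 9 libraries were used. The sum was 136, 135 and 152 CPM in Stat6_KO, 211, 141 and 154 in Il21e_KO and 155, 165 and 153 in WT. Every Stat6_KO library lay below every WT library, narrowly for Stat6_KO 3 and WT 3. The log2 fold change was -0.16 ± 0.12 (SE) in Stat6_KO against WT (limma-trend adjusted p = 1.00) and -0.24 ± 0.12 against Il21e_KO (limma-trend adjusted p = 0.763). Without Il21e_KO 1 these were -0.16 (limma-trend adjusted p = 0.350) and -0.06 (limma-trend adjusted p = 1.00). Nr4a3 was then no longer the gene with the largest difference: Nr4a2 stood at -0.18 in Stat6_KO against Il21e_KO and Egr1 at -0.17 in Il21e_KO against WT.

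Of the 8 tested peaks of Nr4a3, 5 had lower values in Stat6_KO than in WT, and none passed. The other 3, centred 5.4 kb upstream and 63.8 and 71.1 kb downstream, stood at 0.01, 0.05 and 0.00. The intron 7 peak had 14.2, 18.8 and 21.4 CPM in Stat6_KO, 36.2, 22.7 and 20.5 in Il21e_KO and 23.9, 28.8 and 25.2 in WT. No Stat6_KO library reached the lowest WT library (-0.51 ± 0.22 against WT, limma-trend adjusted p = 1.00; -0.50 ± 0.22 against Il21e_KO, limma-trend adjusted p = 0.780; -0.26 without Il21e_KO 1). The TSS peak had 13.1, 10.6 and 15.3 CPM in Stat6_KO, 42.9, 14.5 and 17.2 in Il21e_KO and 20.2, 14.8 and 15.5 in WT. Stat6_KO 3 lies between WT 2 and WT 3, so these groups overlap, and Il21e_KO 1 is more than any other library (-0.74 ± 0.30 in Stat6_KO against Il21e_KO, limma-trend adjusted p = 0.780; -0.28 without Il21e_KO 1). A pair of intron peaks too low to test, named here after their values were seen, ran the other way. The peak 8.6 kb downstream had 2.84, 2.94 and 4.89 CPM in Stat6_KO, 0.953, 3.15 and 0 in Il21e_KO and 0, 0.779 and 0.645 in WT. The peak 18.0 kb downstream had 1.70, 1.18 and 1.83 CPM in Stat6_KO, 0, 1.26 and 0 in Il21e_KO and 0 in every WT library. All Stat6_KO libraries lay above all WT libraries at both, on at most 8 reads in a library. With 0 WT reads, the peak 18.0 kb downstream could be listed only through knockout libraries, so its separation was nearly fixed in advance. Among other member peaks too low to test, such separations occurred in both directions. Their share over all untested peaks is not given, so no difference is read from these 2.

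Cd69 had 26.1, 24.1 and 26.3 CPM at its TSS peak in Stat6_KO, 33.4, 26.5 and 32.7 in Il21e_KO and 31.2, 28.0 and 23.9 in WT. WT 3 lies below the 3 Stat6_KO libraries and the groups overlap; the log2 fold change was -0.11 in Stat6_KO and 0.15 in Il21e_KO against WT (0.09 without Il21e_KO 1). Just past the far end of the gene, a peak 8.7 kb downstream of the start (chromosome 6, 129216265 to 129217153) had the smallest p of all member peaks. It had 16.5, 24.1 and 18.3 CPM in Stat6_KO, 12.4, 15.8 and 16.6 in Il21e_KO and 10.4, 16.3 and 8.38 in WT. Every Stat6_KO library lay above every WT library, the closest pair being Stat6_KO 1 and WT 2. The log2 fold change was 0.73 ± 0.24 in Stat6_KO against WT (limma-trend adjusted p = 1.00) and 0.36 ± 0.24 in Il21e_KO against WT (limma-trend adjusted p = 1.00). Without Il21e_KO 1, which leaves the Stat6_KO value as it is and narrows the spread, the adjusted p for Stat6_KO against WT was 0.155, the lowest over the alternatives tried, which reached 1.00. The sum over the 31 peaks was 216 ± 11.02 CPM in Stat6_KO, 211 ± 7.10 in Il21e_KO and 213 ± 17.4 in WT (SD, n = 3 each).

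The TSS peaks of the members lay lower in Stat6_KO than in WT at 7 of 9, with a median log2 fold change of -0.29. All 11905 tested TSS peaks had a median of -0.08, and none of the 9 passed. These 9 peaks come from 7 genes and share the same libraries, so they are not independent. The share of all TSS peaks that lay lower is not given here. The share of reads at TSS peaks over the whole table was 31.6% to 33.3% in Stat6_KO, 32.7% to 42.7% in Il21e_KO and 32.3% to 36.4% in WT, and the members' summed TSS signal was 203 to 212 CPM in Stat6_KO, 224 to 285 in Il21e_KO and 215 to 264 in WT. Both were highest in WT 1 and WT 2 among the WT libraries and in Il21e_KO 1 among all. With each library scaled to its own TSS reads, a choice made after the data were seen, all TSS peaks had a median of 0.00 and the members -0.21, still lower at 7 of 9, with 0 called. In Il21e_KO against WT the members' TSS peaks had a median of -0.05 (5 of 9 lower) and all TSS peaks 0.03, and without Il21e_KO 1 both were -0.07 (6 of 9 lower). In Stat6_KO against Il21e_KO the medians were -0.16 (6 of 9 lower) and -0.12, and without Il21e_KO 1 -0.08 (7 of 9 lower) and -0.01.

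Library Il21e_KO 1 was the highest of the 9 at 21 of the 62 tested member peaks (33.9%), where it was the highest at 24.8% of all tested peaks. At TSS peaks it led at 4 of 9 members against 54.9% of all TSS peaks, and away from start sites at 17 of 53 members (32.1%) against 14.9%. This share grows with the height of a peak: among peaks off start sites with a mean of at least 20 CPM, Il21e_KO 1 led at 8 of 13 members (61.5%) against 38.2% of all such peaks. Nr4a3 stood out, with 45 reads (42.9 CPM) at the TSS peak against 10.6 to 20.2 CPM in the other 8 libraries, 2.83 times their mean of 15.1 CPM. On the log2(CPM + 1) scale this excess was larger than at 99.8% of TSS peaks. At the Nr4a3 peak 2.1 kb upstream (chromosome 4, 48055476 to 48056648) it had 39.1 CPM against 11.1 to 21.9 in the other 8, an excess larger than at 99.9% of peaks off start sites on the same scale.

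The excess was not shared by all members. Il21e_KO 1 had 24.8 CPM against 5.16 to 14.7 at the Egr1 peak 4.9 kb upstream (chromosome 18, 35015618 to 35016402) and 29.5 CPM against 9.66 to 19.6 at the Cd69 peak 9.3 kb upstream (chromosome 6, 129234216 to 129235261). It was within the range of the others at the Egr2 TSS peak, both Egr3 TSS peaks and the inner Nr4a2 TSS peak, and below all of them at the outer Nr4a2 TSS peak (17.2 CPM against 23.9 to 37.2). The TSS peaks of 26 other immediate-early genes, a list that includes Fos, Jun and Dusp1, summed to 1610 CPM in this library and to 891 to 1166 CPM in the other 8. The naive CD4+ T cell markers summed to 335 CPM in it and 239 to 304 in the other 8, and the B cell markers to 21.9 against 24.9 to 54.8. The memory or effector markers summed to 96.2 against 111 to 132, the myeloid markers to 75.3 against 85.0 to 112. The NK cell markers summed to 13.3 against 16.3 to 26.6. It was the highest library for the regulatory T cell list (78.1) and within the range of the others for the CD8 T cell and erythroid lists. What part depth, the TSS share or the state of the cells has in this was not tested.

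**Figure D4:**
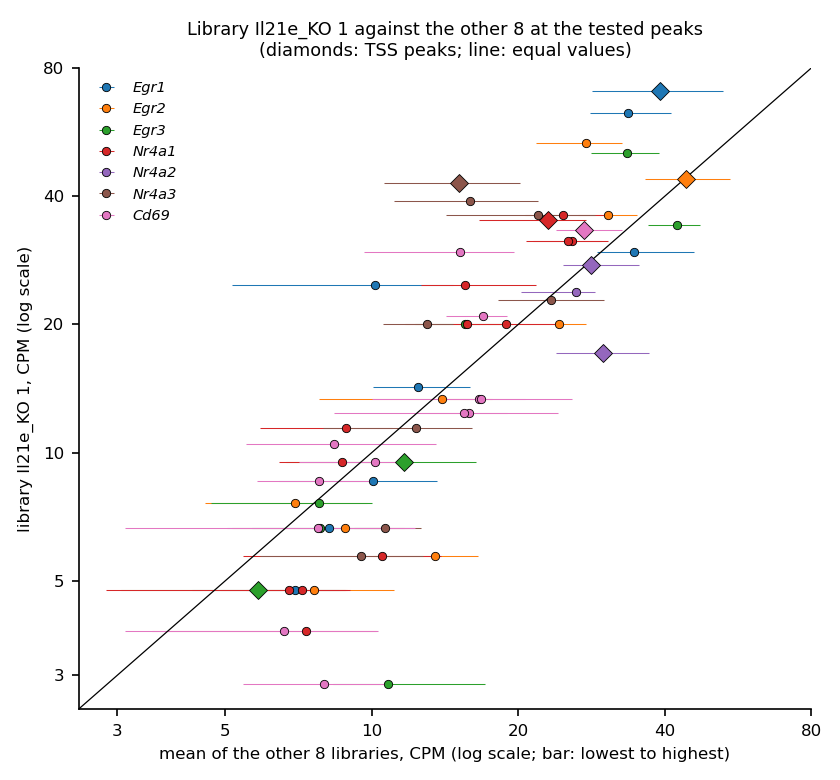
CPM in library Il21e_KO 1 (vertical axis, log scale) against the mean of the other 8 libraries (horizontal axis, log scale, bars from their lowest to their highest) at the 62 tested peaks, coloured by gene, with TSS peaks as diamonds. Points above the line are higher in Il21e_KO 1: the Nr4a3 TSS peak has 42.9 CPM against a mean of 15.1, and the outer Nr4a2 TSS peak lies below the line at 17.2 against 29.9.

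Without Il21e_KO 1, 0 member peaks passed in any comparison. At an unadjusted p under 0.05 there were then 7 of 62 in Stat6_KO against WT, 1 higher and 6 lower (all tested peaks 9.21%), 8 of 62 in Il21e_KO against WT, 3 higher and 5 lower (all tested peaks 6.90%), and 3 of 62 in Stat6_KO against Il21e_KO (all tested peaks 3.89%). The smallest p of that fit, named here after its values were seen, lay at the Nr4a3 peak 2.1 kb upstream, with log2 fold changes of -0.79 in Il21e_KO against WT (limma-trend adjusted p = 0.395) and -0.55 in Stat6_KO against WT (limma-trend adjusted p = 0.309).

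Genes around the 7 in their pathways did not pass the threshold either, by limma-trend on the sum per gene over all 9 libraries, with Junb as the exception once Il21e_KO 1 is left out. Of 22 genes upstream of the members, such as Srf, the MEF2 and NFAT factors, the MAP kinases and calcineurin, 0 rose and 0 fell in each comparison, with median log2 fold changes of -0.03 in Stat6_KO against WT (all genes 0.01), -0.03 in Il21e_KO against WT (all genes -0.01) and 0.01 in Stat6_KO against Il21e_KO (all genes 0.02). The smallest p were those of the calcineurin subunit gene Ppp3r1 (-0.19 ± 0.09, limma-trend adjusted p = 1.00) in Stat6_KO against WT and of Rasgrp1, which activates Ras in T cells (0.15 ± 0.08, limma-trend adjusted p = 0.763; 0.09 without Il21e_KO 1), in Stat6_KO against Il21e_KO.

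Of the 26 immediate-early genes in the table, 0 passed in any comparison over the 9 libraries, with medians of -0.03, 0.02 and -0.08 in the same order, and -0.03, -0.05 and -0.01 without Il21e_KO 1. Btg2, an antiproliferative gene, stood at -0.19 ± 0.09 in Stat6_KO against WT, Irf4, a factor of activated T cells, at 0.14 ± 0.08 in Il21e_KO against WT (0.08 without Il21e_KO 1), and Junb, an AP-1 subunit, at -0.47 ± 0.19 in Stat6_KO against Il21e_KO (limma-trend adjusted p = 0.763; -0.16 without Il21e_KO 1). Summed over its peaks, Junb had 103, 127 and 106 CPM in Stat6_KO, 237, 115 and 136 in Il21e_KO and 154, 157 and 128 in WT. Every Stat6_KO library lay below every WT library, narrowly for Stat6_KO 2 and WT 3, and Il21e_KO 1 above all others. In Stat6_KO against WT the log2 fold change was -0.39 ± 0.19 (limma-trend adjusted p = 1.00). Its limma-trend adjusted p was 0.0157 without Il21e_KO 1 and 0.0275 in a fit of the 2 groups alone. Those 2 settings called 70 and 47 of the 15391 genes in this comparison, against 2 in the main fit. Junb was the only gene of the pathway and marker lists to pass under any alternative tried.

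Of the 28 partner and target genes, 0 passed, with medians of -0.04, -0.04 and 0.01. Nab1, a corepressor that binds EGR proteins, stood at -0.23 ± 0.09 in Stat6_KO against WT (limma-trend adjusted p = 1.00), Tox, a factor of exhausted T cells linked to NR4A, at -0.18 ± 0.05 in Il21e_KO against WT (limma-trend adjusted p = 1.00) and Itch, a ubiquitin ligase of T cell tolerance, at 0.25 ± 0.12 in Stat6_KO against Il21e_KO (limma-trend adjusted p = 0.763). Of 18 lectin and NK receptor genes near Cd69, 11 had peaks in the table and 0 passed, with medians of 0.07, 0.01 and 0.06; the smallest p belonged to Clec12a (0.24), Clec2e (0.26) and Clec2l (0.35; 0.12 without Il21e_KO 1). In the 8 marker lists 0 genes passed as well.

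Over the 9 libraries, the genes whose summed TSS signal followed each member most closely, among 11294 genes, were Immp2l (Pearson r = 0.987) and Stx6 (0.975) for Egr1, Eif1ax (0.947) and Rest (0.945) for Egr2, and Lmtk3 (0.956) and Taf2 (0.903) for Egr3. For the Nr4a genes they were Prpf4b (0.980) for Nr4a1, Pllp (0.985) and Ppic (0.967) for Nr4a2, and Trappc8 (0.986) and Dact3 (0.985) for Nr4a3, and for Cd69 Uimc1 (0.965) and 4921507P07Rik (0.965). All points share depth and TSS share within a library, and these are the highest of many values, so they are given as a description. Without Il21e_KO 1 these values lay between 0.874 and 0.976. Between members, the highest was Egr1 with Nr4a3 at 0.822 (0.638 without Il21e_KO 1), and the lowest Nr4a2 with Nr4a3 at -0.72 (0.23 without Il21e_KO 1, n = 8). Without that library the highest pair was Egr3 with Nr4a1 at 0.800, which had 0.300 over all 9. The lowest was then Egr3 with Cd69 at -0.45, which had -0.55 over all 9.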

How the data were processed

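Accessible chromatin was profiled by ATAC-seq in 9 libraries of naive CD4+ T cells. The deposited table gives CPM for 115727 peaks on mm9, which the authors scaled so that each library sums to 1000000 over the listed peaks. Bowtie 1.3.0, MACS2 2.0, HOMER and the mm9 build are named in the submitters' processing notes; the role of each, and how peaks were merged, are not given in the sources used here. Gene annotations were taken by what each column holds, because their headers are displaced. All values were whole multiples of 1 read (100% within 0.01 read), so read counts could be recovered. The main fit did not pair libraries by replicate number, since no label states such a pairing.

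Peaks (48287) and gene sums (15391 genes) that passed filterByExpr of edgeR 4.0.16 (minimum count 10, minimum total 15) were tested on log2(CPM + 1) by limma-trend, from limma 3.58.1 under R 4.3.3, with all 9 libraries in 1 fit and Benjamini-Hochberg adjustment over all features tested. A fold change on this scale understates the change of low peaks. EdgeR's quasi-likelihood test on the recovered reads called 6, 0 and 12 peaks in Stat6_KO against WT, Il21e_KO against WT and Stat6_KO against Il21e_KO, DESeq2 1.42.0 called 6, 0 and 7, and limma-trend 5, 0 and 5. The procedure was tested on simulated data. A gene's sum covers its own peaks and intergenic peaks within 50 kb. Pairs of genes were compared by exact sign-flip tests.

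Named peaks are each TSS peak, the highest other peak of each gene, and the 3 smallest p in each direction and comparison; genes of like pattern are the 2 with the highest Pearson r, and list genes are named by their smallest p. A few genes that this rule names are not reported here. The members, the lists of upstream, immediate-early, partner and neighbouring genes, and the marker lists were chosen with earlier results of these data known. Promoter sequences are from RefSeq (GRCm38.p6), matched by symbol.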

Additional observations from a re-analysis of the deposited data

How the results depend on the processing

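Across 22 alternative settings (other pseudocounts, scalings, tests and filters, a 2-group fit, other windows, the replicate number as a block, each library left out, and TSS peaks scaled to TSS reads, chosen after seeing the data), 0 member peaks and 0 member genes passed wherever a setting gave a value. The 18 named peak differences kept their direction in all 345 repeats (lowest adjusted p = 0.155). Of 441 repeats of the gene sums, 409 kept their direction and the others crossed 0 without passing (lowest adjusted p = 0.350). In Il21e_KO against WT, Egr1 stood at -0.0158 and Nr4a2 at 0.0173 by limma-voom, Nr4a2 at 0.0195 by edgeR and 0.0118 by DESeq2, Egr2 at 0.00357 and Cd69 at 0.00497 with cyclic loess, and Cd69 at 0.0238 with a 100 kb window. Leaving out 1 library gave these ranges of log2 fold change for the genes that crossed 0. In Stat6_KO against WT they were -0.150 to 0.0301 for Egr1, -0.100 to 0.0196 for Nr4a2 and -0.0345 to 0.0832 for Cd69. In Il21e_KO against WT they were -0.166 to 0.154 for Egr1, -0.0902 to 0.0417 for Egr2, -0.0508 to 0.00635 for Egr3, -0.0393 to 0.0958 for Nr4a1, -0.112 to 0.140 for Nr4a2, -0.0984 to 0.192 for Nr4a3 and -0.0698 to 0.0478 for Cd69. In Stat6_KO against Il21e_KO they were -0.207 to 0.114 for Egr1, -0.128 to 0.00747 for Nr4a1, -0.178 to 0.0742 for Nr4a2 and -0.00536 to 0.0640 for Cd69.

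Counts over all peaks and genes moved more than the members did. In Stat6_KO against WT the 5 called peaks became 3 by limma-voom, 38 in a fit of the 2 groups, 0 among TSS peaks scaled to TSS reads, and 3 to 61 with 1 library left out, the 61 without Il21e_KO 1. In Il21e_KO against WT the 0 became 1 without a filter and 0 to 2 with 1 library left out. In Stat6_KO against Il21e_KO the 5 became 8 with a pseudocount of 5, 16 without a filter, 13 with cyclic loess, 12 by edgeR, 3 by limma-voom, 0 among TSS peaks scaled to TSS reads, and 4 to 17 with 1 library left out. Called genes, 2 in Stat6_KO against WT, became 47 in the 2-group fit, 0 with a 100 kb window and 0 to 70 with 1 library left out. In Il21e_KO against WT the 0 became 0 to 27 with 1 library left out. In Stat6_KO against Il21e_KO the 3 became 1 by limma-voom, 0 in the 2-group fit, 0 with a 100 kb window and 0 to 8 with 1 library left out. With the replicate number as a block, that count was 0, and 4, 0 and 5 peaks passed in the 3 comparisons. Same-numbered libraries correlated at -0.19 to 0.25 after their group means were removed, and differently numbered ones at -0.30 to 0.24. With 3 libraries per genotype this check cannot tell whether the numbers pair the libraries. The 5 gene pairs that differed in TSS signal became 0 with the highest TSS peak alone and 4 to 13 with 1 library left out, 13 without Il21e_KO 1. The cause of these moves was not tested. Since 1 read was worth up to 0.953 CPM, small differences at low peaks were not detectable at this depth, and 51 of the 113 member peaks were too low to test.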
